A study of Homo sapiens with 4 samples.

Results

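The 9 names described here are grouped as neural-type adhesion molecules and receptors, though not all are best known from neural tissue. They include the immunoglobulin-type adhesion molecules NCAM1, NCAM2, L1CAM and ALCAM and the cadherins CDH1 and CDH2. The others are the GABA-A receptor subunit gene GABRA5, the endothelin receptor gene EDNRB and AY358815, a transcript in the NCAM1 locus. The set was picked by measured values: NCAM1, GABRA5 and EDNRB were higher after GATA1 knockdown in the same contrast that is described below. The ratios of all 9 are therefore given as a description with no test. All array probes with 1 of these 9 names were taken, which gave 13 probes and 22 spots, of 30499 gene or transcript names and 41000 probes on the array, and all 13 had a value on all 4 arrays. RNA from 2 clones of Meg-01, an established human megakaryoblastic cell line, was compared with RNA from GATA1 Neg cells of the same line on 4 2-colour Agilent whole human genome arrays on 1 slide. GATA1 5-13 and GATA1 4-14 carried a GATA1 shRNA from a lentivirus, and each grew from 1 soft agar colony after puromycin selection. The control, GATA1 Neg, was not cloned: it was a mixed population infected with a lentivirus whose shRNA resembles no human gene closely. All cells were grown in RPMI 1640 with fetal bovine serum. The extraction text in the labels names clones of CMK, another megakaryoblastic line, while the other labels name Meg-01, as which the samples were taken. The comparison asks which genes change when GATA1, a transcription factor of the megakaryocyte and erythroid lineages that binds the DNA sequence GATA, is reduced.

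Each clone was hybridized on 2 arrays with the dyes in opposite orientation, first with the knockdown RNA in red and then in green. The 2 arrays of a clone were averaged, since no source names separate RNA extracts for the arrays of 1 clone. The number of replicates is therefore n = 2 clones. The GATA1 Neg RNA was common to both clones, and an error in it would move all 4 ratios alike. Between 61.6% and 66.4% of the spots of an array were well above background in a channel, and 0 were saturated. The targeted gene itself, GATA1 (probe A_24_P374244), was at 82.7% of the control level in GATA1 5-13 (log2 ratios of knockdown over GATA1 Neg -0.21 and -0.34) and at 70.6% in GATA1 4-14 (log2 ratios -0.43 and -0.58). Of the megakaryocyte markers, ITGA2B, ITGB3 and GP9 were well above background in GATA1 Neg on all 4 arrays, while PF4 and VWF were above background in neither RNA on any array, as 5 of the 14 probes of this list. In the limma fit over 40974 probes, 235 probes (0.574%) were lower and 134 (0.327%) were higher at an unadjusted p of at most 0.005, the cutoff used in the study, and 0% passed an adjusted p of 0.05 in either direction, where 1656 probes were lower and 1386 higher at an unadjusted p under 0.05.

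NCAM1 and L1CAM are adhesion molecules of the immunoglobulin superfamily that bind their like on other cells and guide the growth of axons. NCAM1 is also carried by natural killer cells and by some leukaemic blasts. Cadherins join cells in a calcium-dependent way through catenins inside the cell. GABA-A receptors are chloride channels of several subunits that open on binding the transmitter GABA, and EDNRB is a G protein-coupled receptor for endothelins that is needed for the neural crest cells that become melanocytes and enteric neurons.

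Of the 13 probes, 6 had a log2 ratio above 0 on all 4 arrays, 3 had one below 0 on all 4, and 4 had mixed signs. Over all probes, 12.8% were above 0 and 13.4% below 0 on all 4 arrays, and nothing is read from the difference, as the ratios themselves chose the genes. On all 4 arrays, the knockdown RNA gave a signal well above background for 6 probes and the GATA1 Neg RNA for 5. Another 6 probes, for NCAM2, L1CAM (both probes), CDH1, 1 of 2 for NCAM1 and 1 of 2 for ALCAM, were above background in neither RNA on any array, so their ratios hold no measured level. The probes for GABRA5, AY358815 and EDNRB had a mean log2 ratio above 1.

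**Figure D1:**
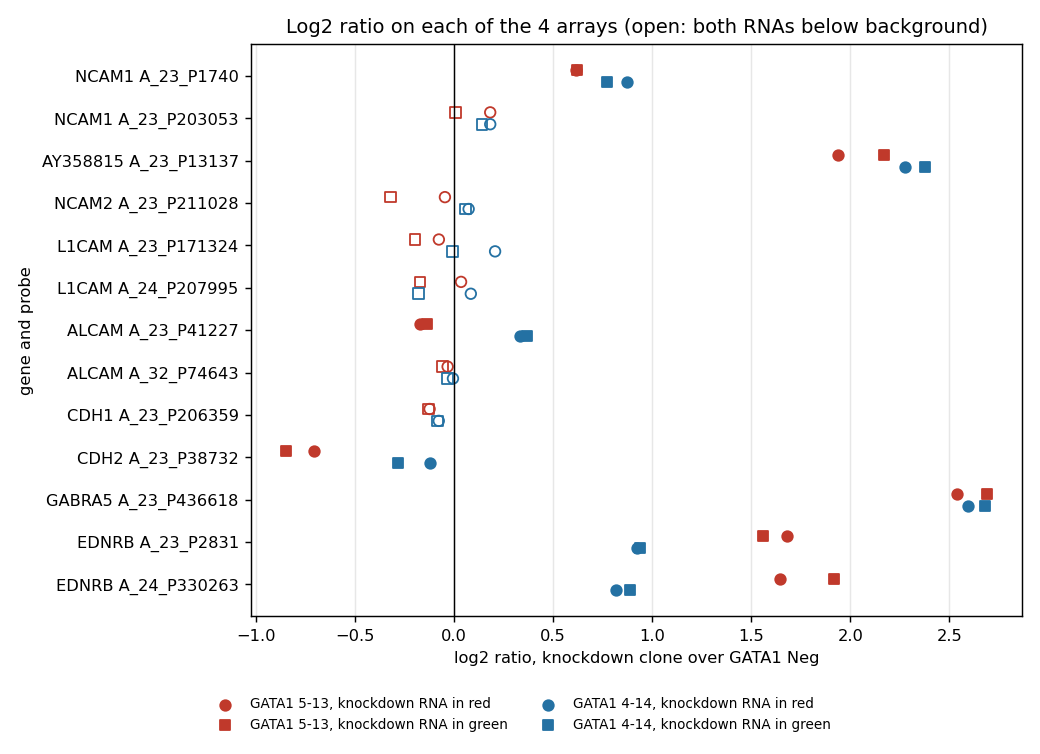
Log2 ratio of knockdown clone over GATA1 Neg (x axis) for each of the 13 probes (y axis) on each of the 4 arrays. Circles mark arrays with the knockdown RNA in red and squares those with it in green. Open symbols mark probes above background in neither RNA. GABRA5 lies between 2.54 and 2.69 on all arrays, EDNRB is split by clone, and CDH2 is below 0 on all arrays.

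Among the receptors, GABRA5 had the highest ratio. It codes for the alpha5 subunit of the GABA-A receptor, which is known mainly from the hippocampus. Its probe A_23_P436618 lies at chr15:24775985-24776044 of hg18, on the plus strand. After loess within arrays and Aquantile between arrays, its log2 level was 12.33 and 12.44 in GATA1 5-13 and 12.38 and 12.44 in GATA1 4-14, against 9.80, 9.75, 9.78 and 9.76 in the GATA1 Neg RNA of the same arrays. The levels of knockdown and control did not overlap, and GABRA5 was well above background in GATA1 Neg on every array. The log2 ratios were 2.54 and 2.69 in GATA1 5-13 and 2.59 and 2.68 in GATA1 4-14, a mean of 2.63 ± 0.02 (SD, n = 2 clones). This amounts to 6.13-fold in GATA1 5-13 and 6.22-fold in GATA1 4-14, and to rank 4 of the 40974 probes by mean log2 ratio. The clones differed by -0.02 (GATA1 5-13 minus GATA1 4-14), which is less than the -0.16 and -0.09 between the red and the green array of a clone.

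EDNRB was higher in both clones and on both of its probes. Probe A_23_P2831 lies at chr13:77372007-77372066 of hg18 and A_24_P330263 at chr13:77368569-77368628, both on the minus strand, and both were well above background in both RNAs on all 4 arrays. The log2 ratios of A_23_P2831 were 1.68 and 1.56 in GATA1 5-13 and 0.92 and 0.94 in GATA1 4-14, a mean of 1.28 ± 0.49 (SD, n = 2 clones). Those of A_24_P330263 were 1.64 and 1.92 in GATA1 5-13 and 0.82 and 0.89 in GATA1 4-14, a mean of 1.32 ± 0.66. On both probes all values of GATA1 5-13 were above those of GATA1 4-14. The fold was 3.08 and 3.44 in GATA1 5-13, and 1.91 and 1.81 in GATA1 4-14. The log2 level on A_23_P2831 was 10.26 and 10.21 in GATA1 5-13 and 9.58 and 9.51 in GATA1 4-14, while GATA1 Neg stayed between 8.58 and 8.66. The clones differed by 0.69 and 0.93 on the 2 probes, and the arrays of a clone by 0.12 and -0.01 on A_23_P2831 and by -0.27 and -0.07 on A_24_P330263. Without background correction the mean of A_24_P330263 was 0.73.

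**Figure D2:**
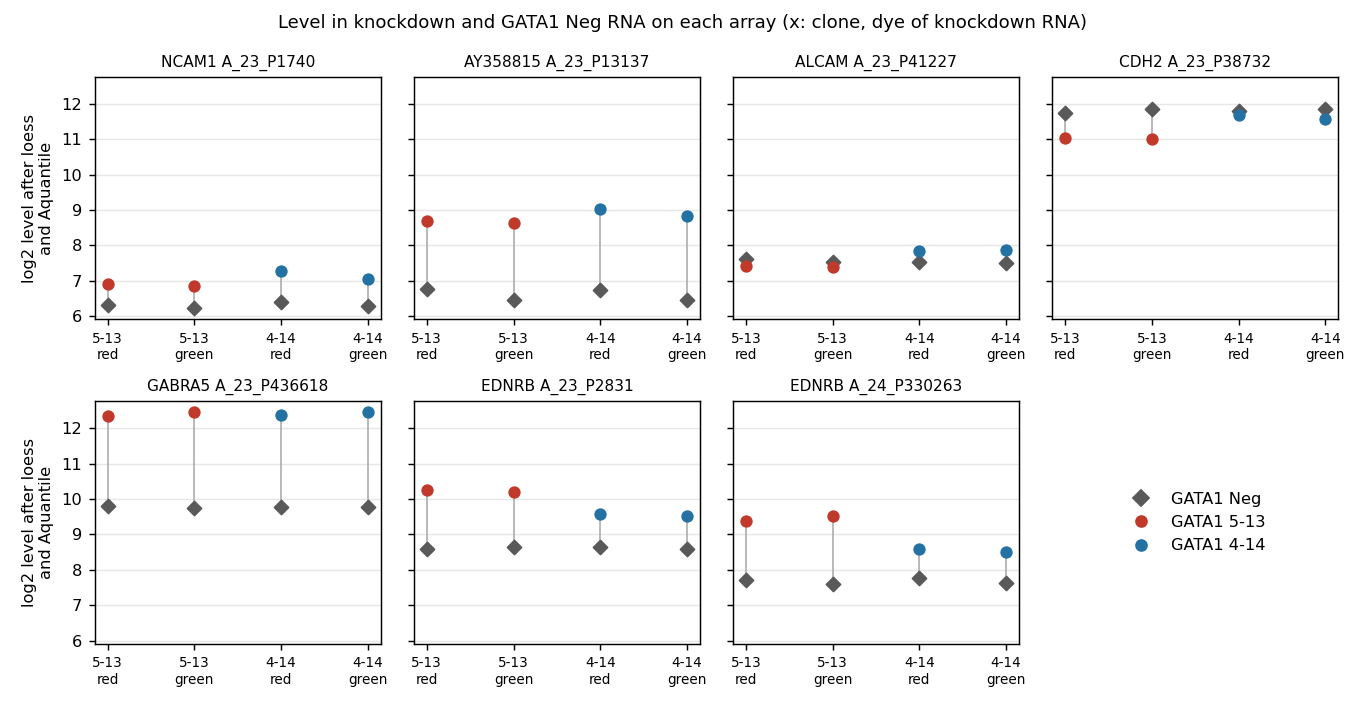
Log2 level (y axis, after loess and Aquantile) in knockdown RNA (circles) and GATA1 Neg RNA (diamonds) on each array (x axis, clone and dye of the knockdown RNA) for the 7 probes above background in at least 1 RNA on some array. A level is to be read within a panel, since probes differ in brightness. GATA1 Neg varied little for GABRA5 (9.75 to 9.80), and EDNRB stood higher in GATA1 5-13 than in GATA1 4-14.

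The start region of EDNRB is shown because GATA1 was the factor reduced and EDNRB is the 1 gene with a ratio above 1 whose start region is in the RefSeq table used (GRCh38.p14). The table holds 2 EDNRB start regions of 300 bases each, with 250 bases before and 50 after the start, at chr13:77918782-77919081 and chr13:77919633-77919932 of the minus strand. They are printed 5′ to 3′, and capitals mark a GATA motif. The motifs searched, on both strands, were AGATAA and AGATAG as well as the forms TGATAA and TGATAG, which do not overlap in these sequences.
EDNRB, first region: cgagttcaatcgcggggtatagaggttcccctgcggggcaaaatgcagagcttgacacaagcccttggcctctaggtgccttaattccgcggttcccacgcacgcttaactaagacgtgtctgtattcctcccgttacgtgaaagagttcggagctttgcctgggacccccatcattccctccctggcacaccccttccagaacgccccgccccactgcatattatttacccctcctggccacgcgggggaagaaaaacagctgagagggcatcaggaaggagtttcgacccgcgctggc
EDNRB, second region: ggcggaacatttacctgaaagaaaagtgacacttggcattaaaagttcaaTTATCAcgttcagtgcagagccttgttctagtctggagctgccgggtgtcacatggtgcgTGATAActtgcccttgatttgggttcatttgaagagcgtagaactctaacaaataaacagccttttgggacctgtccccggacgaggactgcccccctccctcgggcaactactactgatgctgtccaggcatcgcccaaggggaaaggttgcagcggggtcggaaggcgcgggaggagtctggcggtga
The first region holds 0 of these motifs. The second holds TGATAA at 2 places, at -200 on the opposite strand and at -140 on the strand shown, counted from the start. Of all 35116 start regions in the table, 25.0% held at least 1 of the motifs. The start regions of NCAM2, ALCAM and CDH2 held 0, and those of L1CAM, which overlap each other, held 1 AGATAG each. A match is a description of letters, and binding was not measured here.

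In the NCAM1 locus on chromosome 11 of hg18, 3 probes on the plus strand lie in the order A_23_P1740 (chr11:112608654-112608713), A_23_P13137 of AY358815 (chr11:112623833-112623893) and A_23_P203053 (chr11:112639639-112639698), with 15119 and 15745 bases between neighbours. AY358815 had log2 ratios of 1.94 and 2.17 in GATA1 5-13 and of 2.28 and 2.38 in GATA1 4-14, a mean of 2.19 ± 0.19 (SD, n = 2 clones). The knockdown RNA was well above background for it on all 4 arrays and the GATA1 Neg RNA on 0 of 4, so its control level is only a limit. Measured against the lowest signal well above background where that was higher than the control's own, AY358815 was at least 4.15-fold higher in the clone GATA1 5-13. For GATA1 4-14 the bound was at least 4.70-fold higher. In GATA1 5-13 the bound is the plain fold itself, as the control's own level was used on both arrays. Both bounds hold for this background correction only. Its log2 levels were 8.70, 8.63, 9.03 and 8.83 in the knockdown RNA and 6.76, 6.46, 6.75 and 6.45 in GATA1 Neg.

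The log2 ratios of the NCAM1 probe A_23_P1740 were 0.61 and 0.62 in GATA1 5-13 and 0.87 and 0.77 in GATA1 4-14, a mean of 0.72 ± 0.15 (SD, n = 2 clones). Knockdown RNA was well above background for it on 1 array of GATA1 5-13 and on both of GATA1 4-14, and GATA1 Neg RNA on 0 of 4. Against the same kind of limit NCAM1 was at least 1.23-fold higher in the clone GATA1 5-13. For GATA1 4-14 the bound was at least 1.40-fold higher. The other NCAM1 probe, A_23_P203053, was above background in neither RNA on any array, with log2 ratios of 0.18, 0.01, 0.18 and 0.14.

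How large the ratio of a dim probe comes out depends on the background correction, which here added an offset of 50 to every signal. For AY358815 the mean log2 ratio was 0.95 without background correction and 4.09 with the log ratios of Agilent's Feature Extraction program, whose signals get no such offset. For NCAM1 A_23_P1740 these values were 0.19 and 2.63. GABRA5, bright in both RNAs, had 2.30 and 2.74. All of these were above 0.

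The deposited probe annotation gives AY358815 as a name of its own, and no gene models of hg18 were used here, so whether the probes of the locus lie in exons, introns or untranslated parts is not stated. Within 500 kb of NCAM1 on either side, a window chosen after the values were seen, 7 probes of 6 other names (among them TTC12, ANKK1, DRD2 and ZW10) had mean log2 ratios between -0.15 and 0.10. All 7 lie at higher coordinates than NCAM1, so the other side was not measured, and DRD2 was above background in neither RNA. In the same window around EDNRB, SCEL, above background in neither RNA, had -0.06 and SLAIN1 0.12. Both lie at lower coordinates than EDNRB.

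CDH2, or N-cadherin, was the member with the lowest ratio. Its probe A_23_P38732 (chr18:23786079-23786138 of hg18, minus strand) was well above background in both RNAs on all arrays. Its log2 ratios were -0.71 and -0.85 in GATA1 5-13 and -0.12 and -0.28 in GATA1 4-14, a mean of -0.49 ± 0.41 (SD, n = 2 clones). This left 58.4% of the control level in GATA1 5-13 and 87.0% in GATA1 4-14. In log2 levels, CDH2 was at 11.037 and 10.996 in GATA1 5-13 and at 11.68 and 11.58 in GATA1 4-14, and GATA1 Neg was between 11.74 and 11.86. The levels of GATA1 4-14 were thus close to those of the control but did not overlap them. The clones differed by -0.58 and the arrays of a clone by 0.14 and 0.16. CDH1, or E-cadherin, the cadherin of epithelia, is spotted 10 times and was above background in neither RNA, with log2 ratios from -0.13 to -0.08.

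ALCAM, the activated leukocyte cell adhesion molecule, went opposite ways in the clones. On probe A_23_P41227 (chr3:106754075-106773400 of hg18, plus strand), which was well above background in both RNAs on all arrays, the log2 ratios were -0.17 and -0.13 in GATA1 5-13 and 0.33 and 0.37 in GATA1 4-14, a mean of 0.10 ± 0.36 (SD, n = 2 clones). The clone difference of -0.50 compares with -0.04 between the arrays of either clone. Probe A_32_P74643 of ALCAM, over background in neither RNA, had ratios from -0.06 to -0.01. The L1CAM probes A_23_P171324 and A_24_P207995 had log2 ratios from -0.20 to 0.21, and NCAM2 (A_23_P211028) from -0.32 to 0.07, in both cases with no RNA above background. The array thus gave no measured level for L1CAM, NCAM2 and CDH1 in these cells.

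**Figure D3:**
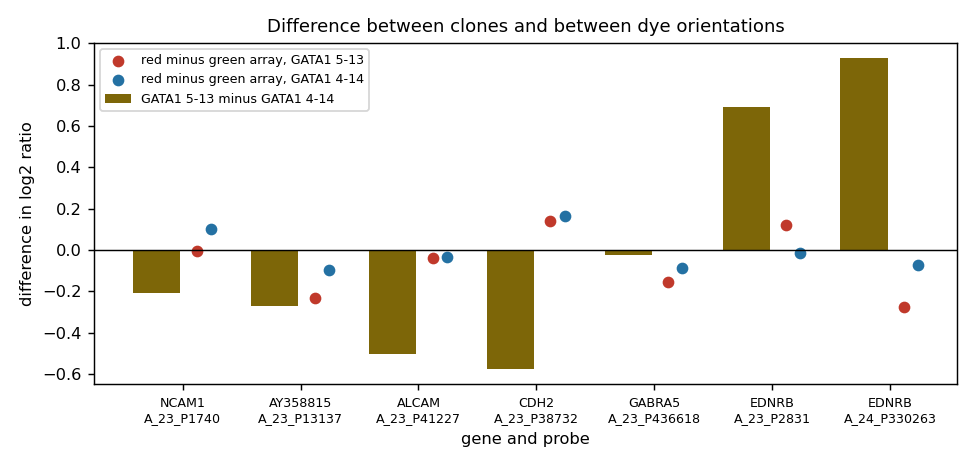
Difference in log2 ratio (y axis) between the clones (bars, GATA1 5-13 minus GATA1 4-14) and between the arrays of a clone with the knockdown RNA in red and in green (points), for the 7 probes above background in at least 1 RNA on some array. The bars of EDNRB (0.69 and 0.93), CDH2 (-0.58) and ALCAM (-0.50) are longer than their points are far from 0, and that of GABRA5 (-0.02) is not.

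Ordered by mean log2 ratio, the probes above background ran from GABRA5 over AY358815, both EDNRB probes, NCAM1 A_23_P1740 and ALCAM A_23_P41227 to CDH2. All array values of GABRA5 were above all of AY358815 (2.54 to 2.69 against 1.94 to 2.38), though AY358815 has only a lower limit. With the log ratios of Feature Extraction this order turned, with AY358815 at 4.09 and GABRA5 at 2.74, and NCAM1 A_23_P1740 at 2.63 was above EDNRB at 1.47 and 1.76. AY358815 was above EDNRB on all arrays in the main values. The EDNRB probes overlapped each other, and in GATA1 4-14 they overlapped NCAM1 A_23_P1740 (0.82 to 0.94 against 0.77 and 0.87).

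Other genes of the same families were read from the fit over all 40974 probes, in 5 lists with 160 probes of 93 genes. Of these, 1 probe was higher and 0 were lower at an unadjusted p of at most 0.005, that is 0.625% higher against 0.327% of all probes, and 0 of 160 passed the adjusted threshold, with 8 higher and 2 lower at an unadjusted p under 0.05. The median mean log2 ratio was -0.0020 over the lists and -0.00022 over all probes. All probes of 52 of the 93 genes were above background in neither RNA.

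For the GABA-A receptor, 32 probes of 21 genes were measured, 0 were called in either direction, and 13 were above background in neither RNA. GABRA2, which codes for the alpha2 subunit, had the highest ratios of the list. Its probe A_23_P212869 had log2 ratios of 1.73 and 2.12 in GATA1 5-13 and of 0.80 and 0.40 in GATA1 4-14 (limma, unadjusted p = 0.044, adjusted p = 0.67). GABARAPL2, a member of the family of GABA-A receptor-associated proteins, had -0.14 and -0.19.

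Among 35 probes of 13 genes that act with NCAM1 or L1CAM, 0 were called, and 23 were above background in neither RNA. ANK2, an ankyrin that ties membrane proteins to the spectrin skeleton, had log2 ratios of 0.54 and 0.53 in GATA1 5-13 and 1.08 and 0.93 in GATA1 4-14 (limma, unadjusted p = 0.012, adjusted p = 0.58). ST8SIA4, an enzyme that adds polysialic acid to NCAM1, had clone means of 0.18 and 0.37 on A_23_P361984. Its other probe and the probes of ST8SIA2, the other such enzyme, were above background in neither RNA. GDNF, a ligand that can signal through NCAM1, had 0.11 and 0.09 on A_24_P376451, and its other probes were above background in neither RNA. FYN, a kinase bound by NCAM1, had -0.12 and -0.15. FGFR1 and NRP1, partners of NCAM1 and L1CAM at the membrane named after their values were seen, had opposite signs in the clones. NRP1 A_24_P928052 had -0.89 and -0.78 in GATA1 5-13 against 1.55 and 1.61 in GATA1 4-14, and FGFR1 A_23_P301304 had -0.34 and -0.21 against 0.61 and 0.75.

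Of 42 probes of 24 cadherin and catenin genes, the 1 called was CDH7, a classical cadherin of the nervous system. Its probe A_23_P153146 had log2 ratios of 0.75 and 0.65 in GATA1 5-13 and of 0.97 and 1.00 in GATA1 4-14, a mean of 0.84 ± 0.20 (SD, n = 2 clones; limma, unadjusted p = 0.0029, adjusted p = 0.51). The call is lost without background correction and with the log ratios of Feature Extraction. The second CDH7 probe, A_24_P382287, had clone means of 0.29 and 0.38. Of the catenins, which bind cadherins inside the cell, JUP had -0.10 and -0.42. The probes of CTNNB1 disagreed. A_23_P29495, above background in both RNAs on all arrays, had 0.21 and 0.03, while A_23_P29499, named after its values were seen, was above background in GATA1 4-14 alone, with log2 ratios of 1.17 and 1.06 there and a bound of at least 2.17-fold higher. CDH10, named after its values were seen, had no level above background in GATA1 4-14 or GATA1 Neg, and its bound in GATA1 5-13 was at least 3.54-fold higher.

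In the endothelin list, 8 of 9 probes were above background in neither RNA, among them those of EDNRA, the other endothelin receptor, and of the ligands EDN1, EDN2 and EDN3. ECE1, an enzyme that makes endothelin from its precursor, was above background and had clone means of -0.22 and -0.04. Of 42 probes of 28 further neural genes of the immunoglobulin, contactin, neurexin and neuroligin families, 0 were called, and 33 were above background in neither RNA, among them both probes of CHL1, a close relative of L1CAM. NLGN1, a neuroligin of excitatory synapses, had a clone mean of -0.51 in GATA1 4-14, and its bound in GATA1 5-13 was at least 2.79-fold lower (limma, unadjusted p = 0.049, adjusted p = 0.67).

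**Figure D4:**
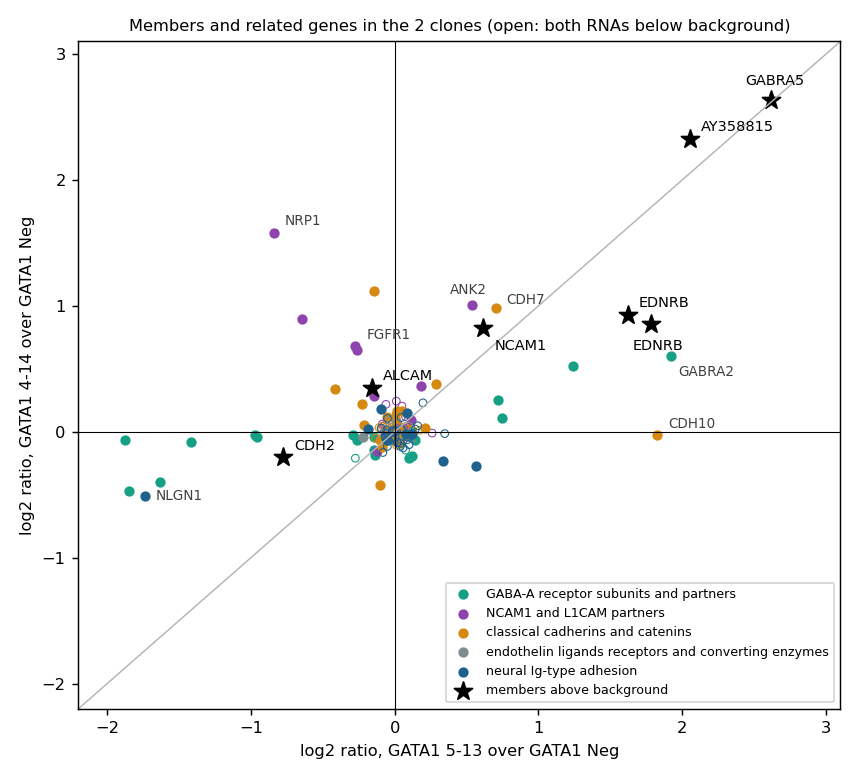
Clone mean log2 ratio in GATA1 5-13 (x axis) and GATA1 4-14 (y axis) for the 7 probes above background (stars) and for the 160 probes of the 5 related gene lists (circles; open where neither RNA was above background on any array). The line marks equal values. Both clones share the GATA1 Neg RNA. GABRA5 lies on the line at 2.61 and 2.64, while most related genes lie near 0 in both clones.

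Markers of cell types that carry these molecules were read in the same way, and their part in the results was not tested. Of 13 probes for neuron markers 8 were above background in neither RNA, all those of SYP, SNAP25, MAP2 and NEFL among them. Marker probes given with values here and below were named after their values were seen. Of the neuron markers above background, TUBB3 had clone means of 0.45 and 0.08 on A_23_P77493 and of -0.03 and -0.11 on A_24_P258633, and STMN2 A_23_P399265 had -0.12 and -0.21. The bounds of ELAVL4 in GATA1 5-13 were at least 1.75-fold lower on A_24_P188447 and at least 1.72-fold lower on A_24_P944336, with clone means of -0.21 and -0.23 in GATA1 4-14. The summed background-subtracted signal of the neuron markers in red was 14207 to 16311 in the knockdown RNA and 16325 to 16361 in GATA1 Neg. In green it was 7373 in GATA1 5-13, 6815 in GATA1 4-14 and 7204 to 7294 in GATA1 Neg. Such sums are not normalized, and within a colour the knockdown and GATA1 Neg RNA come from different arrays. Of 7 probes for natural killer and T cell markers 5 were above background in neither RNA, among them those of NCR1, KLRD1, GNLY and CD3D. The sums in red were 344 to 353 in the knockdown RNA and 321 to 336 in GATA1 Neg, and in green 186 to 194 and 179 to 194. CD3E A_24_P86968 was well above background in both RNAs on all arrays, with clone means of 0.002 and 0.06. NKG7 was above background on some arrays. Of 19 probes for markers of glia and the neural crest, all those of SOX10 and TYR were above background in neither RNA, 12 in all. Their sums in red were 6552 in GATA1 5-13, 3721 in GATA1 4-14 and 3816 to 4095 in GATA1 Neg, and in green 3575, 2081 and 1943 to 2164. MITF, the melanocyte transcription factor gene, had clone means of 1.01 and 0.14 on A_23_P426663 and of 0.60 and -0.01 on A_23_P61945. The melanocyte genes DCT and SILV were also above background on the probes A_23_P76622 (0.03 and 0.05) and A_23_P2233 (0.01 and 0.06). All other probes of DCT and SILV were above background in neither RNA. GFAP A_24_P31165 was well above background in both RNAs on all arrays, with clone means of -0.15 and 0.07. The other GFAP probes were above background in neither RNA. Of 8 probes for epithelial markers 2 were above background in neither RNA, so keratin signal was present beside dark CDH1. The sums in red were 38578 in GATA1 5-13, 42958 in GATA1 4-14 and 44590 to 45450 in GATA1 Neg, and in green 17588, 20223 and 19749 to 20588. The keratin gene KRT18 had clone means of -1.90, -2.14 and -2.19 in GATA1 5-13 and of -0.17, -0.20 and -0.23 in GATA1 4-14 on its 3 probes above background. The megakaryocyte sums in red were 18871 in GATA1 5-13, 20781 in GATA1 4-14 and 24610 to 24723 in GATA1 Neg, and in green 8371, 9639 and 10968 to 11013.

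For the members with a mean log2 ratio above 1, the probes of other genes with the smallest Euclidean distance over the 4 array log2 ratios were found, among probes well above background in the brighter RNA on all arrays. For AY358815 these were BAMBI, a decoy receptor of the TGF-beta family, at 0.25, JAKMIP2 at 0.25 and KIAA1598 (now SHTN1), known from axon growth, at 0.42. For GABRA5 they were BAMBI at 0.66, KIAA1598 at 0.67 and VCX2 at 0.79. For EDNRB A_23_P2831 they were TMEFF1 at 0.18, NTS, which codes for the peptide neurotensin, at 0.23 and NFATC1 at 0.30. For EDNRB A_24_P330263 they were STXBP6 at 0.18, NTS at 0.26 and ACADL at 0.28. These are likenesses over 4 arrays of 2 clones and carry no test.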

How the data were processed

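Scanner output of 4 2-colour arrays was deposited, made with version 9.5.3.1 of Agilent Feature Extraction. Probe positions are those of hg18 in these files. Main results rest on the deposited intensity of each spot (its mean) and of its local background (the median) in both channels, which the authors had not normalized. The deposited log10 ratio of each spot and its error came from that program's background-subtracted, dye-normalized signals and served as an alternative. A deposited table of all 4 arrays together held these log10 ratios with the sign set so that knockdown is the numerator (largest difference 4.97e-06; the median of each column was 0). The deposited p-values and the study's Rosetta Resolver combination were not used here.

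Background was corrected with limma 3.58.1 in R 4.3.3 (data.table, version 1.17.8) by normexp with an offset of 50, which makes folds of dim probes smaller. Loess was run within arrays. Control spots and the 135 to 152 outlier spots of an array were left out, replicate spots were averaged by probe, the sign was set to knockdown over GATA1 Neg, and a clone's 2 arrays were averaged. The limma test was two-sided, of the mean of 2 clones against 0, and p-values were adjusted by Benjamini-Hochberg for 40974 probes. The spread of GATA1 Neg was not measured, and the number of arrays limits the precision. P-values rest on a spread between these 2 clones that limma draws strongly towards the spread common to all 40974 probes. They therefore do not measure the clone spread of a probe alone. A probe not well above background in an RNA on all arrays of a clone has only a bound there, from channel levels after loess and Aquantile. Such a bound holds for this background correction only. It equals the plain fold where the dim RNA's own level was above the limit. The fit was tested on simulated data.

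The genes, the related lists and the markers were chosen with earlier results of these data known. Named were all probes of the members and GATA1, list probes at an unadjusted p of at most 0.005, the 4 list probes with the largest mean log2 ratio in size that had the same sign on all arrays and were well above background in the brighter RNA on all arrays, and the 3 nearest probes of other genes; others are said to be named after their values were seen. Some genes of the lists are counted but not reported by name here. Array names are those of the design, and 17061 of 18035 RefSeq accessions (94.6%) matched a current symbol. Alternatives were other background corrections, log ratios, normalizations, filters, moderation, units of replication and an error-weighted mean, and each array and clone left out.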

Additional observations from a re-analysis of the deposited data

Results flagged for a closer look

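Some probes had all arrays of GATA1 5-13 on one side of 0 and all arrays of GATA1 4-14 on the other, and these differences between the clones were not tested, as each clone is 1 replicate. Among the members this held for ALCAM A_23_P41227, with a difference in log2 ratio (GATA1 5-13 minus GATA1 4-14) of -0.50. Among the related genes that were well above background, the largest were NRP1 A_24_P928052 (-2.42) and A_24_P135322 (-1.54) and FGFR1 A_23_P301304 (-0.96) and A_23_P219105 (-0.43). CTNND2 A_23_P110624 differed by -0.45, NLGN2 A_23_P207125 by -0.28, and the GABARAPL1 probes A_24_P4816 and A_23_P162640 both by 0.31.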

How the results depend on the processing

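Of the member probes above background, only ALCAM A_23_P41227 changed sign under an alternative tried. The others had 1 sign on all 4 arrays, so leaving out an array or a clone, or Aquantile, could not change it. GABRA5 ran from 2.30 to 2.74, AY358815 from 0.95 to 4.09 and NCAM1 A_23_P1740 from 0.19 to 2.68. The EDNRB probes ran from 0.89 to 1.62 and from 0.73 to 1.78. ALCAM A_23_P41227 was -0.15 without GATA1 4-14 and 0.35 without GATA1 5-13, and CDH2 was -0.78 and -0.20. Of 169 values of member probes under alternatives, 132 moved by less than the SD between clones and 37 by more. This count does not measure robustness, since part of it was fixed in advance. Leaving out a clone always moves a mean by less than that SD. The values after Aquantile repeat the main ones, and the series-wide values repeat those of Feature Extraction. The counts of member probes with 1 sign on all arrays were recomputed by alternatives chosen after seeing the data: those below 0 went from 3 to 1 with Feature Extraction's log ratios or the series-wide values and to 0 with median centring, and leaving out an array gave 3 to 4 below and 6 above 0. Of all probes, those called lower went from 235 to 148 without background correction and to 134 with Feature Extraction's log ratios or the series-wide values, and the 1 called higher in the lists to 0 in each. With an intensity trend 1 listed probe was called lower. The 4 arrays as 4 values, no block, called 1238 lower and 971 higher, 6 of them higher in the lists, and with the replicate block 1021 and 755, 4 in the lists. The error-weighted mean called 1823 and 1713, with 7 and 13 in the lists. Leaving out an array gave 223 to 283 lower and 151 to 166 higher, and 0 lower and 1 higher in the lists. After adjustment, the replicate block called 167 lower and 102 higher, with 0 in the lists, the 4 arrays without a block 736 and 504, with 3 higher in the lists, and the error-weighted mean 1768 and 1648, with 7 lower and 12 higher in the lists. Replicate numbers share only the dye orientation: deviations correlated by 0.77 between arrays with the same number. With 2 arrays per clone the deviations mirror each other, so the 2 such pairs hold 1 and the same value.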
